A study of Mus musculus with 23 samples.

Results

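The chromatin of 10 loci of the tumour necrosis factor (TNF) family is described here: the ligand genes Tnf, Lta, Ltb, Tnfsf9 and Tnfsf18, the receptor genes Tnfrsf1a and Tnfrsf1b, the adaptor genes Traf1 and Traf3, and the feedback gene Tnfaip3. A peak was assigned to a gene when its summit lay in the gene body or within 20 kb of it on GRCm38, and to the nearest of the 10 where several qualified. The same rule was applied to the centres of regions built across the genome, each reaching 250 bp to either side. It gave 70 of 49124 regions, for 10 of 21900 protein-coding genes. The assay was ATAC-seq, in which a transposase inserts sequencing adapters into open chromatin, on striatal microglia of male mice that were 8 to 10 weeks old. Per the labels, the cells were sorted as live, CD11b+, CD45-low and P2RY12+.

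There were 4 groups. MIA_LPS (n = 5) held offspring of mothers exposed to maternal immune activation (MIA), injected with lipopolysaccharide (LPS). CON_LPS (n = 7) held control offspring given LPS. MIA_SAL (n = 6) and CON_SAL (n = 5) held MIA and control offspring injected with saline. LPS, a bacterial cell wall component sensed by the receptor TLR4, was given into the peritoneum at a dose of 4500 endotoxin units (EU) per gram, and cells were taken 18 hours after either injection. The sources used here do not name the agent or day of the maternal immune activation or the strain of the mice. Blunted microglial reactivity is named in the title of the series, so the response to LPS in MIA against control offspring is the question behind the design. Nothing in the labels ties libraries to separate animals, so the p-values reflect only how these libraries vary, which may be technical.

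TNF family ligands bind receptors whose cytoplasmic tails recruit TRAF adaptor proteins, and this activates the transcription factor NF-kB. NF-kB in turn switches on genes of the same circuit, among them Tnf itself and Tnfaip3, whose protein is a ubiquitin-editing enzyme that shuts the signal down. In the brain, microglia are a main source of TNF, and they carry both of its receptors.

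The promoters below show the starts on which several results turn, as RefSeq sequences of GRCm38.p6 from 250 bases before to 50 bases after the annotated start. Capitals mark the letters searched for on both strands. These were an NF-kB motif, GGG then any 2 bases then TTTCC, present in 1.63% of 32817 promoters of the same length. An AP-1 motif, TGANTCA, was present in 7.81%, a PU.1 motif, GAGGAAGT, in 3.20%, and a TATA box, TATAAA, in 13.6%. Tnf is shown because its start changed rank with LPS, Traf3 and Tnfaip3 because their starts held a peak in all 23 libraries and an NF-kB motif. Ltb is shown because its start carried the NF-kB motif with a peak in 2 libraries, and Tnfsf18 because its start was mostly without a peak while regions on either side of it gained one.
Tnf, chr17:35201958-35202257, minus strand: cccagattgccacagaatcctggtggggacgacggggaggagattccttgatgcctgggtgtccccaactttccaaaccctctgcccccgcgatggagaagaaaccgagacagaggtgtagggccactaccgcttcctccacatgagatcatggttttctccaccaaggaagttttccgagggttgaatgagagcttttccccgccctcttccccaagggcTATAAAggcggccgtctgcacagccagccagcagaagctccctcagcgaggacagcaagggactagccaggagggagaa
Ltb, chr17:35194257-35194556, plus strand: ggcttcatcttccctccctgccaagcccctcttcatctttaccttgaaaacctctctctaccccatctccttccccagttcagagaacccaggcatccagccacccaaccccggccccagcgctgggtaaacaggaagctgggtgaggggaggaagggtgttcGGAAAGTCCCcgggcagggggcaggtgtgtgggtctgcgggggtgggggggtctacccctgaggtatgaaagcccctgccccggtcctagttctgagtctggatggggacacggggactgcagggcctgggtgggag
Tnfsf18, chr1:161494407-161494706, plus strand: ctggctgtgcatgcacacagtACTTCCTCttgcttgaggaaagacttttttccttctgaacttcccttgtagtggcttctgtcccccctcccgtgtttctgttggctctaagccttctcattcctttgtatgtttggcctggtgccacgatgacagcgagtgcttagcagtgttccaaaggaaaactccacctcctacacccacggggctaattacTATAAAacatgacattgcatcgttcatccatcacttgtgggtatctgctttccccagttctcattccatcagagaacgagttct
Traf3, chr12:111166120-111166419, plus strand: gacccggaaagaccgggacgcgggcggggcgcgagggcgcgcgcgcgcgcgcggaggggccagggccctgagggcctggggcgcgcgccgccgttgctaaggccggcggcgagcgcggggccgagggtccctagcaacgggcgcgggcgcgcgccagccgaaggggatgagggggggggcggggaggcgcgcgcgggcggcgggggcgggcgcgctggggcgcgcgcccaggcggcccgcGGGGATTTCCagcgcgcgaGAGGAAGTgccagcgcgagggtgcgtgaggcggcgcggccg
Tnfaip3, chr10:19015361-19015660, minus strand: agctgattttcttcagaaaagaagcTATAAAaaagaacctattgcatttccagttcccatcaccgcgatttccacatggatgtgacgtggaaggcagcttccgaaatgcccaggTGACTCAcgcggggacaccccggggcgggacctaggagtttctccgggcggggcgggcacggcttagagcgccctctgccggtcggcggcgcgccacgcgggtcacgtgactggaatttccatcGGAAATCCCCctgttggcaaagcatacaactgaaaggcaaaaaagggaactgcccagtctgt
Counted from the start, the NF-kB letters began at −87 in Ltb, −10 in Traf3 and −12 in Tnfaip3. The promoter of Tnfaip3 also held the AP-1 letters from −136 and the TATA letters from −225. That of Traf3 held the PU.1 letters from position 9. In Tnf and Tnfsf18 the TATA letters began at −29 and −34. Another annotated start of Tnfaip3, at chr10:19011963, held none of the motifs and had no peak over it in any library. The promoters of Tnfrsf1a, Tnfrsf1b and Traf1 held none of the 4 motifs. A match describes letters and not a bound site.

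The deposited lists held 33949 to 68312 peaks, and no read counts were used here, so depth is unknown. Every list was therefore shortened to the 33949 peaks with the highest −log10 p. A region is called open in a library that has a peak there. Its rank is the percentile of that peak in the list, with 100 for the best peak and 0 for no peak. It places a peak among the others of its library and is not an amount of signal. The labelled cell type was checked on markers: 7 to 9 of 10 microglial genes per library had a peak within 500 bp of an annotated start or end, and 6 of the 10 did in all 23. Gpr34 had none, and P2ry12, whose protein was used in the sort, had one in 2 of 5 MIA_LPS, 2 of 7 CON_LPS, 5 of 6 MIA_SAL and 3 of 5 CON_SAL libraries. Of 10 monocyte and neutrophil genes, 9 had none in any library, Ccr2 and Ly6c2 included. The exception, S100a8, had a peak in 4 of 5 MIA_LPS and 6 of 7 CON_LPS libraries and in no saline library, and so had F13a1, a marker of border-associated macrophages. Cd79a, a marker of B cells, had a peak in 2 of 5 MIA_LPS, 5 of 7 CON_LPS, 1 of 6 MIA_SAL and 0 of 5 CON_SAL libraries. The part of these peaks in the results below was not tested. In bulk libraries, fewer cells with an open region and less opening per cell cannot be told apart.

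Libraries with the numbers 1 to 3 as the second number of their ID label stood apart. They were MIA_LPS replicate 3, CON_LPS replicates 3 and 7, MIA_SAL replicates 3 and 4 and CON_SAL replicate 3, all with 10560 to 12617 sorted cells. Pairs of the same treatment shared 70.7% ± 0.788 of their open regions within these 6 libraries (SD, 6 pairs) and 69.3% ± 2.03 between them and the others (51 pairs). The other 17 libraries shared 76.3% ± 2.32 (64 pairs). The labels do not explain these numbers, and all 4 groups hold at least 1 of the 6 libraries. Several libraries share such a number, for example 14 in MIA_LPS replicate 2 and MIA_SAL replicate 2, or 2 in CON_LPS replicate 3 and CON_SAL replicate 3. Every shared number stays within MIA or within control offspring. No test grouped libraries by it, so any dependence between such libraries is not accounted for in the p-values.

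Across the 10 loci, the regions called after LPS were mostly gains. Of 70 regions, 28 could be tested on how many libraries had a peak. In LPS against saline libraries, with the offspring group as stratum, 9 were open in more LPS libraries and 1 in fewer (exact conditional test, adjusted p under 0.05). In either direction that is 35.7%, beside 23.7% of all regions tested. It is 32.1% higher and 3.57% lower, beside 15.3% higher and 8.39% lower over all 17547 regions tested. The gains belonged to Tnfrsf1b with 3 regions, Tnfsf18 and Traf3 with 2 each, and Traf1 and Tnfsf9 with 1 each. The loss lay in Tnfrsf1b.

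On the rank scale, where regions open in every library can also differ, 18 of 70 regions ranked higher and 2 lower after LPS (limma, adjusted p under 0.05). These shares were 25.7% and 2.86%, beside 10.5% and 9.47% over all 49124 regions. The median difference was 2.55 rank points over the 70 regions and −0.598 over all regions, and it was positive in 65.7% of the 70 and 45.7% of all. Ranks of LPS libraries lay wholly above those of saline libraries in 4 regions (5.71%, beside 1.63% of all) and wholly below in 1 (1.43%, beside 0.456%). Without the 6 libraries that stood apart, 8 of 18 tested regions were open in more and 1 in fewer LPS libraries. Over all regions, 3485 of 10950 tested were then called, 2172 of them higher. On rank 16 of the 70 were higher and 6 lower. In libraries of fewer than 20000 sorted cells (n = 13) the exact test called 3 of 12 tested regions, beside 450 of all 7225 tested. Limma called 9 of the 70 there, and 15 in libraries of more cells (n = 10). Limma shares over all regions under these settings are not given here.

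**Figure D1:**
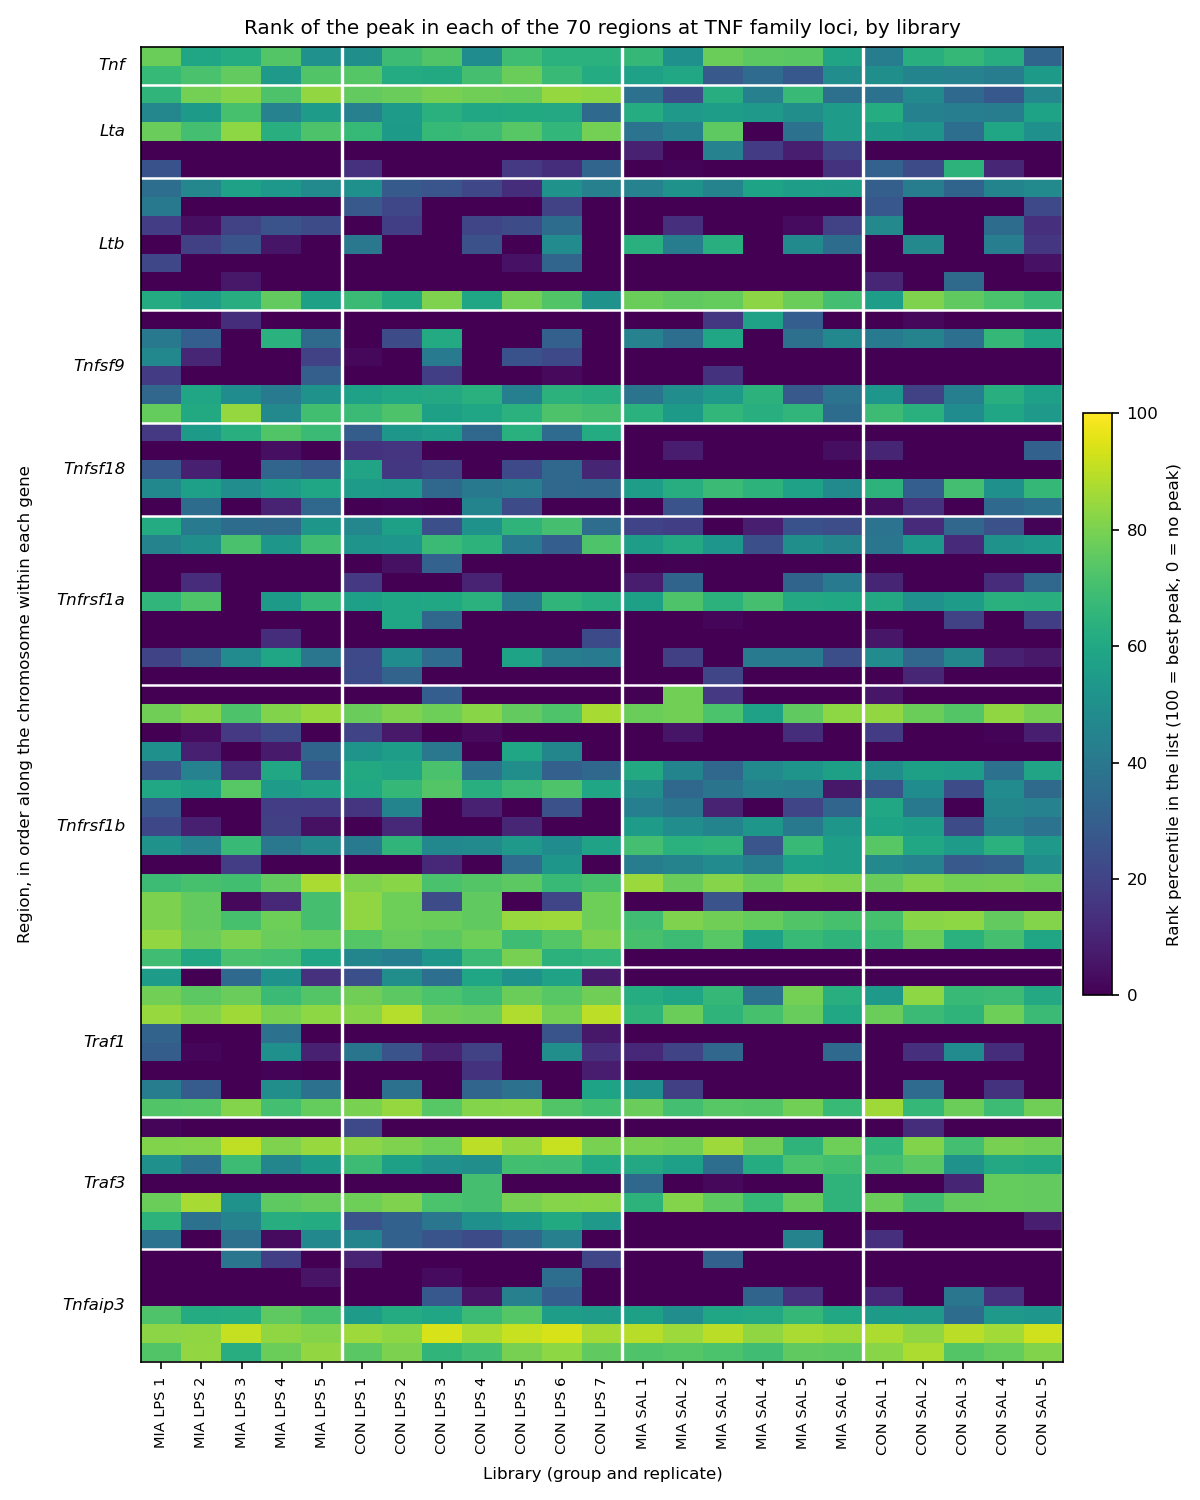
Rank percentile of the peak in each of the 70 regions (rows, grouped by gene and ordered along the chromosome) in each of the 23 libraries (columns, by group), with 100 for the best peak of a list and 0 for no peak. Rows near Tnfsf18, Tnfrsf1b, Traf1 and Traf3 are dark in all or nearly all saline libraries and bright in the LPS libraries, while the starts of Tnfaip3, Traf3 and Tnfrsf1b are bright in every library.

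Of the 70 regions, 26 were open in all 23 libraries (37.1%, beside 33.8% of all regions). A gene held 2 (Tnf) to 15 (Tnfrsf1b) regions, 26 regions lay in a gene body, and 23 of the 44 outside were nearer to another coding gene. Nearness to a gene does not show that a region controls it. MIA_LPS libraries had 47.8 ± 4.02 of the 70 regions open (SD, n = 5) and CON_LPS libraries 48.1 ± 3.24 (n = 7). MIA_SAL libraries had 41.0 ± 3.79 (n = 6) and CON_SAL libraries 43.2 ± 2.77 (n = 5).

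The ligand gene Tnf, which encodes the cytokine that names the family, held 2 regions, and both were open in all 23 libraries. The region over its start (chr17:35201888-35202388) ranked higher after LPS. Its rank was 53.6, 67.1, 71.2, 72.7 and 76.1 in MIA_LPS libraries, and 60.9 to 77.7 with a median of 67.7 in CON_LPS libraries. In MIA_SAL libraries it was 27.7 to 60.0 with a median of 42.1, and in CON_SAL libraries 42.2, 44.2, 45.2, 49.7 and 54.5. The LPS libraries were the higher ones, and 1 MIA_LPS library lay below 3 of the saline libraries. The difference was 22.9 points ± 3.94 (SE; limma, adjusted p = 0.000197). The authors' fold enrichment there had medians of 5.61 in MIA_LPS, 5.20 in CON_LPS, 4.72 in MIA_SAL and 4.57 in CON_SAL libraries. When peaks were ranked by that fold the difference was 15.2 points and not called (limma, adjusted p = 0.108), and in libraries of 20000 or more sorted cells it was 17.3 points (adjusted p = 0.0623). The region inside the gene, 1387 bp after the start, averaged 63.2 ± 9.68 in LPS and 60.7 ± 14.1 in saline libraries (SD, n = 12 and 11), which limma did not call (adjusted p = 0.672).

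**Figure D2:**
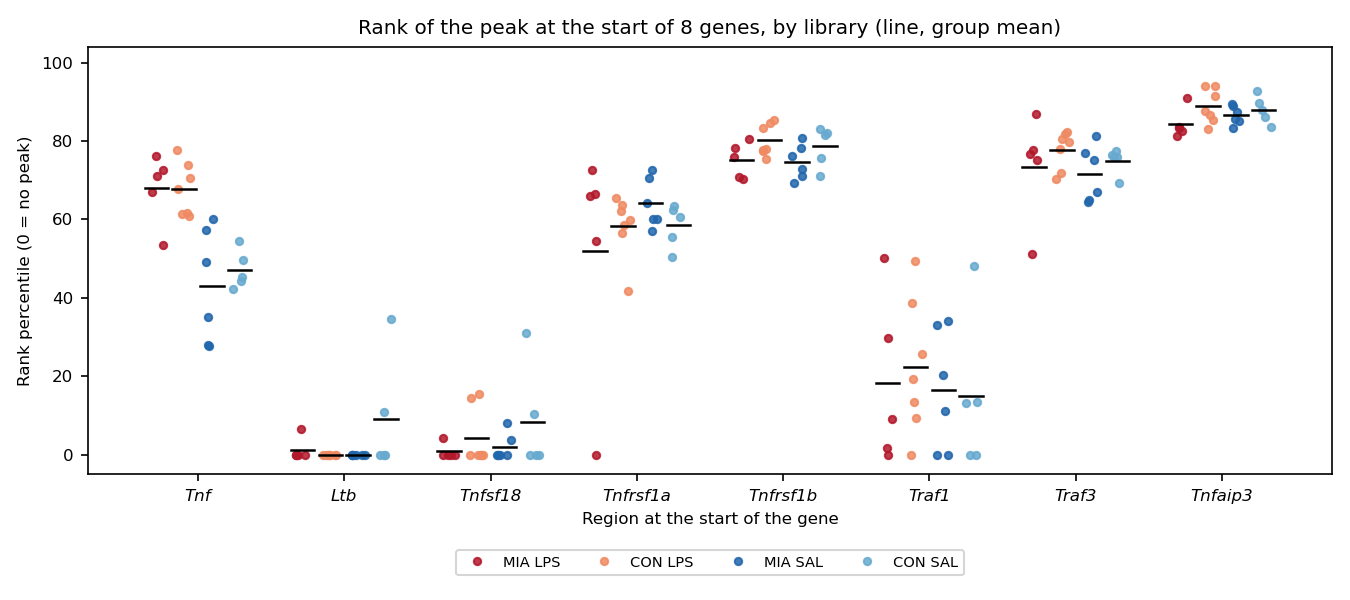
Rank percentile (0 = no peak) of the region at the annotated start of 8 genes in each library, with a line at each group mean. At Tnf the LPS libraries sit between 53.6 and 77.7 and the saline libraries between 27.7 and 60.0, while at Tnfrsf1b, Traf3 and Tnfaip3 the groups overlap.

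Lta encodes lymphotoxin alpha and lies next to Tnf on chromosome 17. No library had a peak over its annotated start. The region 4910 bp upstream of it (chr17:35210011-35210511) was open in all 23 libraries and ranked higher after LPS. It ranked 65.6, 72.1, 79.0, 82.0 and 83.8 in MIA_LPS libraries, and 75.9 to 84.3 with a median of 78.3 in CON_LPS libraries. MIA_SAL libraries gave 22.9 to 67.3 with a median of 40.6, and CON_SAL libraries 27.4, 34.2, 37.2, 46.3 and 47.6. The LPS libraries were the higher ones, with 1 MIA_SAL library above the lowest MIA_LPS library. The difference was 36.1 points ± 4.20 (SE; limma, adjusted p = 1.47e-06), and it was called under all 33 alternatives tried. The authors' fold had medians of 8.85 in MIA_LPS, 8.03 in CON_LPS, 5.89 in MIA_SAL and 5.55 in CON_SAL libraries. The other 4 regions assigned to Lta were nearer to Nfkbil1. Among them, chr17:35219614-35220114, chosen after its values were seen, averaged 70.2 ± 7.68 in LPS and 45.6 ± 18.9 in saline libraries (limma, adjusted p = 0.00418). The call was lost in libraries of fewer than 20000 sorted cells (29.3 points, adjusted p = 0.151).

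Ltb encodes lymphotoxin beta, the membrane partner of lymphotoxin alpha. None of its 7 regions was called in either test. Its start region was open in 1 of 5 MIA_LPS, 0 of 7 CON_LPS, 0 of 6 MIA_SAL and 2 of 5 CON_SAL libraries. The region near the other end of the gene, 1383 bp after the start, was open in all 23 libraries and was the best ranked of the locus. It averaged 65.4 ± 9.77 in LPS and 73.7 ± 7.31 in saline libraries, a difference of −8.47 points with a 95% interval from −15.9 to −1.04 (limma, adjusted p = 0.104). Ranked by fold, it fell by 26.2 points (adjusted p = 0.0355).

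Tnfsf9 encodes the ligand of a receptor that costimulates T cells. A region 6809 bp from the gene (chr17:57098228-57098728) was open in 3 of 5 MIA_LPS and 4 of 7 CON_LPS libraries and in none of the 11 saline libraries (exact conditional test, adjusted p = 0.0270). Its peaks were weak, with ranks of 2.00 to 46.8. The call did not hold without MIA_LPS replicate 1, 2 or 5 (exact test, adjusted p = 0.0525 to 0.0540), and limma gave 0.0627. The region at one end of the gene was open in all 23 libraries and averaged 53.7 ± 10.0 in LPS and 46.1 ± 14.1 in saline libraries (limma, adjusted p = 0.377). The best ranked region of the locus, 5330 bp from the gene, averaged 66.8 ± 9.79 in LPS and 58.4 ± 9.82 in saline libraries (adjusted p = 0.177).

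Tnfsf18 encodes the ligand of GITR, a costimulatory receptor of T cells. Its start was almost without peaks, open in 1 of 5 MIA_LPS, 2 of 7 CON_LPS, 2 of 6 MIA_SAL and 2 of 5 CON_SAL libraries, at ranks of at most 31.0. The region 12245 bp upstream of it (chr1:161482162-161482662) was open in all 12 LPS libraries and none of the 11 saline libraries (exact conditional test, adjusted p = 0.000175). It ranked 16.6, 54.6, 62.8, 68.3 and 72.8 in MIA_LPS libraries, and 29.3 to 63.5 with a median of 53.01 in CON_LPS libraries. The 2 treatments did not overlap, and the fold there had medians of 9.80 in MIA_LPS and 6.45 in CON_LPS libraries. The rank difference was 51.2 points ± 5.33 (SE; limma, adjusted p = 3.21e-07), and in libraries of 20000 or more sorted cells 47.6 points (adjusted p = 0.0518). Inside the gene, 2845 bp after the start, a weaker region (chr1:161497252-161497752) was open in 4 of 5 MIA_LPS and 6 of 7 CON_LPS libraries and in no saline library (exact conditional test, adjusted p = 0.00191). Its rank call was lost in lists of 16974 peaks (limma, adjusted p = 0.907) and in libraries of fewer than 20000 sorted cells (0.184). A neighbour 6253 bp after the start was open in all 23 libraries and averaged 46.6 ± 9.78 in LPS and 58.0 ± 11.8 in saline libraries (limma, adjusted p = 0.0990).

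**Figure D3:**
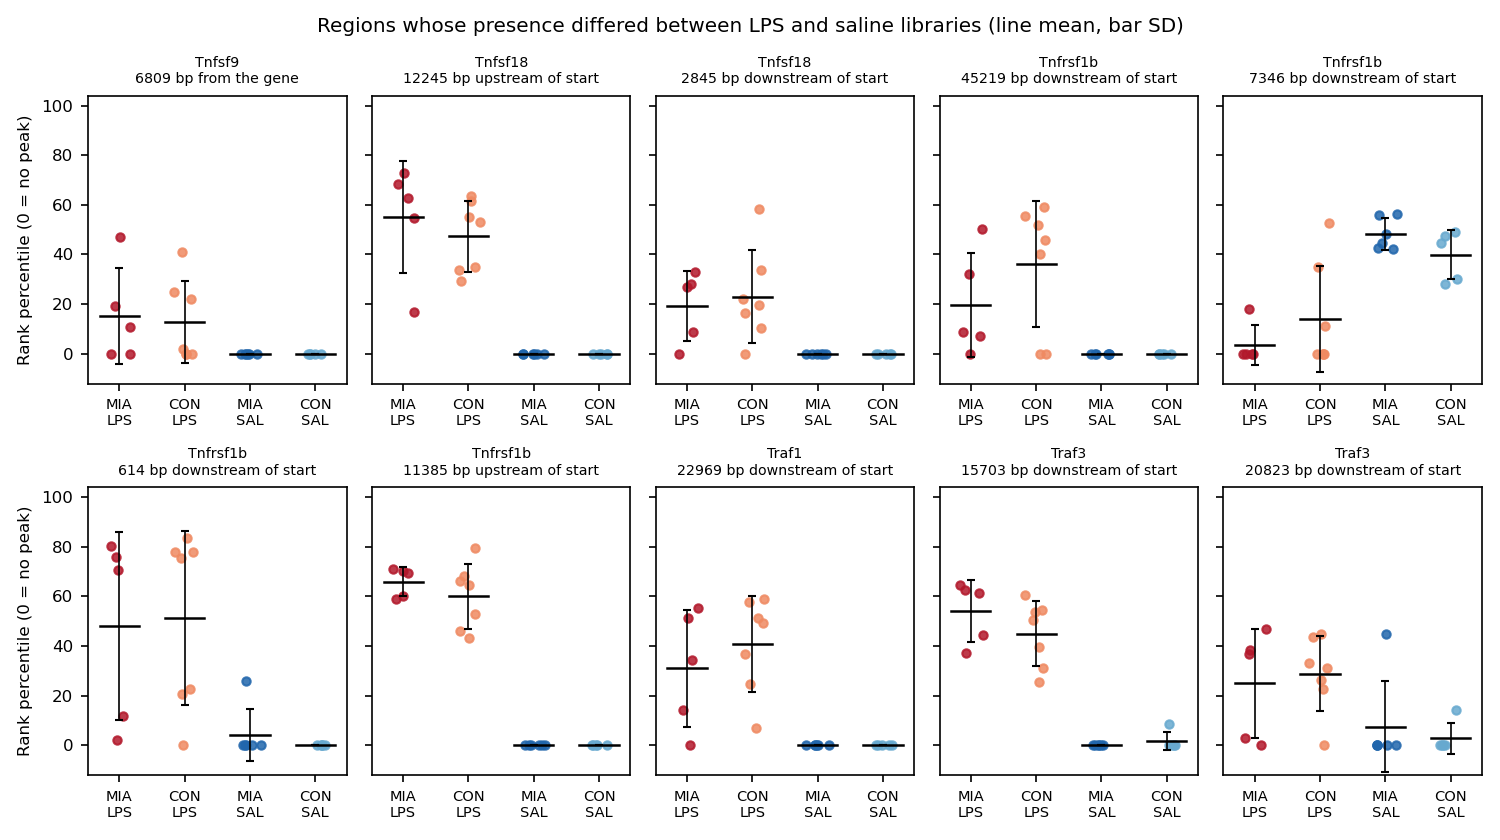
Rank percentile (0 = no peak) in each library for the 10 regions whose number of libraries with a peak differed between LPS and saline, with group means as lines and SD as bars. In 9 panels nearly all saline libraries lie at 0, with MIA_SAL libraries at 25.7 and 44.8 and CON_SAL libraries at 8.49 and 14.1 as the exceptions. In the panel 7346 bp downstream of the start of Tnfrsf1b, 8 of 12 LPS libraries lie at 0.

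The receptor genes differed from each other. Tnfrsf1a encodes the receptor found on most cell types, with a death domain in its tail. Its start region (chr6:125349455-125349955) was open in 22 of 23 libraries, with MIA_LPS replicate 3 as the exception. It averaged 55.7 ± 19.2 in LPS and 61.5 ± 6.33 in saline libraries, a difference of −6.16 points with a 95% interval from −18.8 to 6.46 (limma, adjusted p = 0.522). Without that library the difference was 0.334. Of its 9 regions, 1 was called by limma. It lay 18519 bp upstream within Scnn1a (chr6:125330954-125331454, chosen after its values were seen) and averaged 47.9 ± 14.0 in LPS and 18.6 ± 12.2 in saline libraries (adjusted p = 0.000640). In lists of 16974 peaks its difference was 9.07 points (adjusted p = 0.340), and in libraries of fewer than 20000 sorted cells 19.6 points (adjusted p = 0.139), neither of them called.

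Tnfrsf1b encodes the second TNF receptor, which lacks a death domain, binds TRAF proteins and is carried mainly by immune and endothelial cells. Its locus held the most regions and the most called ones, gains and losses among them. The largest gain lay 11385 bp upstream of its start (chr4:145258005-145258505), where the nearest coding gene was Tnfrsf8, 8877 bp away. The region was open in all 12 LPS libraries and none of the 11 saline libraries (exact conditional test, adjusted p = 0.000175). It ranked 58.9, 59.9, 69.4, 70.2 and 71.2 in MIA_LPS libraries, and 43.2 to 79.6 with a median of 64.4 in CON_LPS libraries. The treatments did not overlap, and the difference was 63.0 points ± 3.29 (SE; limma, adjusted p = 6.83e-12). Both calls held under every alternative that gave a value, down to a difference of 27.5 points in lists of 16974 peaks. A region between it and the start, 7696 bp upstream and chosen after its values were seen, was open in all 23 libraries and averaged 76.7 ± 3.82 in LPS and 67.4 ± 5.97 in saline libraries (limma, adjusted p = 0.00311), a call lost under 3 of 33 alternatives.

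The start of Tnfrsf1b (chr4:145246609-145247109) was open in all 23 libraries and averaged 78.1 ± 4.81 in LPS and 76.5 ± 4.97 in saline libraries (limma, adjusted p = 0.780). The adjoining region 614 bp into the gene (chr4:145246006-145246506) was open in 5 of 5 MIA_LPS, 6 of 7 CON_LPS, 1 of 6 MIA_SAL and 0 of 5 CON_SAL libraries (exact conditional test, adjusted p = 0.00191). In 7 of these 12 libraries the peak counted there was the one that also covered the start. With the summit required inside the region, it was open in 4 LPS libraries and 1 saline library, and limma did not call it (2.36 points, adjusted p = 0.693). Neither test called it in libraries of fewer than 20000 sorted cells (exact test, adjusted p = 0.0505, limma 0.0596), nor limma in libraries of more cells (0.215). Its ranks in MIA_LPS libraries were 2.26, 11.6, 70.4, 75.8 and 80.4, and the 3 higher ones were also the ranks of the start region in those libraries.

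Farther into the gene body, 2 regions lost rank and 1 gained, all chosen after their values were seen. At 7346 bp after the start (chr4:145239274-145239774), a peak was present in 1 of 5 MIA_LPS and 3 of 7 CON_LPS libraries, against 6 of 6 MIA_SAL and 5 of 5 CON_SAL libraries (exact conditional test, adjusted p = 0.0119). It ranked 28.1 to 56.3 in saline libraries. In the full deposited lists it had a peak in 10 of 12 LPS libraries and in all 11 saline libraries. With peaks ranked by fold it was not called (exact test, adjusted p = 0.149, limma 0.155). The rank call was also lost in lists of 16974 peaks (limma, adjusted p = 0.752) and in libraries of 20000 or more sorted cells (0.106). At 14917 bp (chr4:145231703-145232203) the ranks were 0 to 21.5 with a median of 2.43 in LPS libraries, and 23.03 to 58.2 with a median of 49.2 in saline libraries. These did not overlap, and the region fell by 39.4 points ± 3.66 (SE; limma, adjusted p = 5.63e-08). In lists of 16974 peaks it fell by 4.52 points and was not called (adjusted p = 0.165). At 24725 bp (chr4:145221895-145222395) the region was open in all 23 libraries, with ranks of 55.2 to 73.9 in LPS and 6.61 to 49.4 in saline libraries, a difference of 27.4 points ± 4.38 (limma, adjusted p = 8.47e-05). Beyond the gene, a region 10717 bp from it and 6614 bp from Vps13d was open in 4 of 5 MIA_LPS and 5 of 7 CON_LPS libraries and in no saline library (exact conditional test, adjusted p = 0.00471). Its rank call was lost in lists of 16974 peaks (limma, adjusted p = 0.669) and in libraries of fewer than 20000 sorted cells (0.439). The best ranked region on average, 31 bp from Vps13d, averaged 79.3 ± 4.53 in LPS and 76.5 ± 7.47 in saline libraries (limma, adjusted p = 0.538).

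**Figure D4:**
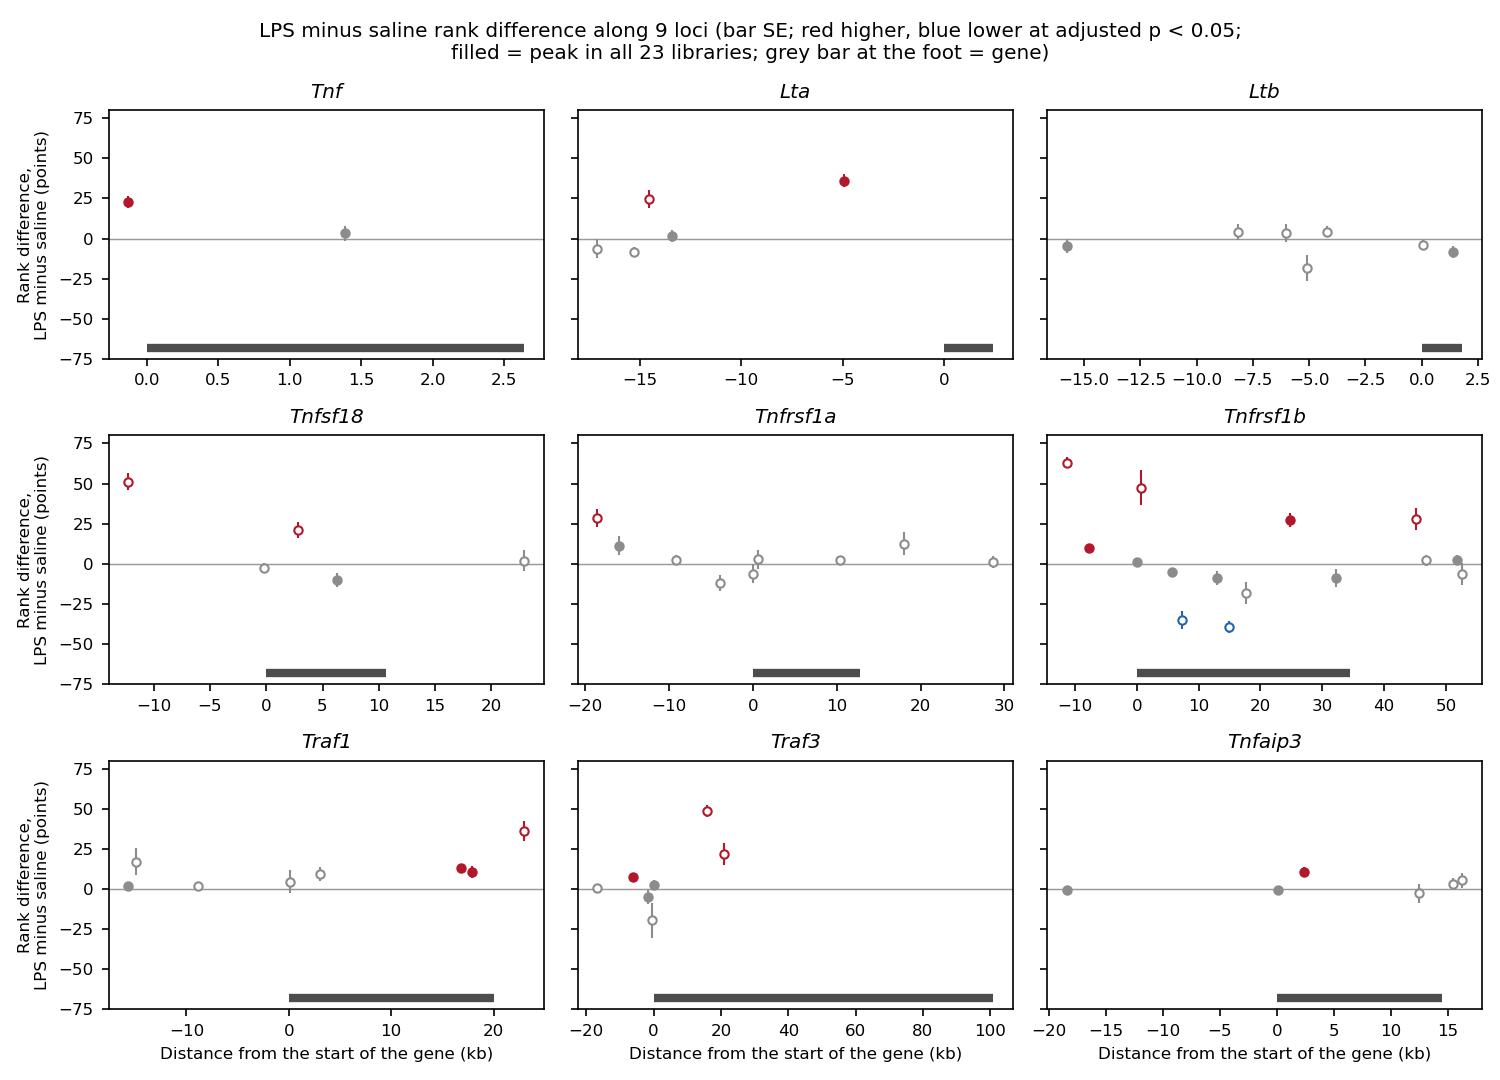
Difference in rank, LPS minus saline (points, SE bars), against distance from the annotated start (kb) for the regions of 9 genes, with the gene as a grey bar. Filled points are open in all 23 libraries, and colour marks an adjusted p under 0.05 by limma. At Tnfrsf1b the 2 called losses lie within the gene, with called gains on either side of them, and at Tnfsf18, Traf1 and Traf3 the called regions lie away from the start.

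The adaptor gene Traf1, itself a known NF-kB target whose protein binds other TRAFs, had 3 of 8 regions called by limma, all higher. A region 2947 bp beyond the far end of the gene (chr2:34938553-34939053) was open in 4 of 5 MIA_LPS and 7 of 7 CON_LPS libraries and in no saline library (exact conditional test, adjusted p = 0.000547). It ranked 0, 14.3, 34.4, 51.1 and 55.2 in MIA_LPS libraries, and 7.13 to 58.9 with a median of 49.3 in CON_LPS libraries. Its peaks spanned low to middle ranks, with a difference of 35.9 points ± 6.22 (SE; limma, adjusted p = 0.000208). In libraries of fewer than 20000 sorted cells neither test called it (exact test, adjusted p = 0.0505, limma 0.0843), and in lists of 16974 peaks limma did not (0.426). The best ranked region of the locus, 16849 bp after the start within the gene, was open in all 23 libraries and averaged 83.1 ± 4.35 in LPS and 70.1 ± 6.37 in saline libraries (limma, adjusted p = 0.000561). In libraries of 20000 or more sorted cells its difference was 11.95 points and not called (adjusted p = 0.109). The region nearest to the start was open in 4 of 5 MIA_LPS, 6 of 7 CON_LPS, 4 of 6 MIA_SAL and 3 of 5 CON_SAL libraries, and none of its peaks covered the annotated start itself.

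Traf3 encodes an adaptor that holds back the alternative NF-kB pathway and takes part in interferon induction. Inside the gene, 15703 bp after the start (chr12:111181823-111182323), a region was open in 5 of 5 MIA_LPS, 7 of 7 CON_LPS, 0 of 6 MIA_SAL and 1 of 5 CON_SAL libraries (exact conditional test, adjusted p = 0.000558). It ranked 37.2, 44.6, 61.4, 62.5 and 64.5 in MIA_LPS libraries, and 25.6 to 60.7 with a median of 50.3 in CON_LPS libraries. The single saline peak ranked 8.49, below every LPS library, and the difference was 48.7 points ± 3.91 (SE; limma, adjusted p = 6.01e-09). In lists of 16974 peaks it was 10.4 points and not called (adjusted p = 0.0735). A second region, 20823 bp after the start, was open in 4 of 5 MIA_LPS, 6 of 7 CON_LPS, 1 of 6 MIA_SAL and 1 of 5 CON_SAL libraries (exact conditional test, adjusted p = 0.0252). That call did not hold without the 6 libraries that stood apart (adjusted p = 0.0510) or in libraries of fewer than 20000 sorted cells (exact test, adjusted p = 0.585, limma 0.581). In lists of 16974 peaks its rank difference was 0, and without MIA_LPS replicate 5 limma gave 19.0 points (adjusted p = 0.0525). The start region, whose NF-kB letters are shown above, was open in all 23 libraries and averaged 76.0 ± 9.06 in LPS and 73.2 ± 5.66 in saline libraries (limma, adjusted p = 0.675). The best ranked region, 6264 bp upstream, averaged 83.8 ± 4.56 in LPS and 76.4 ± 6.42 in saline libraries (adjusted p = 0.0356), a call that was lost under 12 of 33 alternatives.

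The feedback gene Tnfaip3 had the highest ranked start region of the 8 and no response there to LPS that either test called. Its start region (chr10:19015109-19015609), with the NF-kB, AP-1 and TATA letters shown above, was open in all 23 libraries. It ranked 81.3, 82.4, 83.4, 83.6 and 91.0 in MIA_LPS libraries, and 83.1 to 94.1 with a median of 87.8 in CON_LPS libraries. MIA_SAL libraries gave 83.3 to 89.5 with a median of 86.5, and CON_SAL libraries 83.6, 86.1, 87.8, 89.8 and 92.7. All 4 groups overlapped, and the difference was −0.710 points with a 95% interval from −4.29 to 2.87 (limma, adjusted p = 0.825). The rank scale ends at 100, and whether that bound played a part here was not tested. Among the other 5 regions, the one 2388 bp into the gene, chosen after its values were seen, ranked 64.2 ± 7.56 in LPS and 54.7 ± 7.94 in saline libraries (limma, adjusted p = 0.0129), a call lost under 4 of 33 alternatives.

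Of the 8 regions over or next to an annotated start, those of Tnfsf18 and Traf1 could be tested on presence and neither was called. On rank 1 of the 8, at Tnf, was called. Of the 9 regions gained on presence, 1 lay within 1 kb of a gene end, the one next to the start of Tnfrsf1b, and 5 lay outside the genes. Each of the 12 LPS libraries had 6 to 9 of these 9 regions open. MIA_LPS replicate 3, the library with no peak at S100a8 or F13a1, had 6. CON_LPS replicate 4, without the S100a8 peak, had 6 and CON_LPS replicate 5, without the F13a1 peak, had 8. CON_LPS replicate 7, with both peaks, also had 6, and the other 8 libraries, all with both, had 7 to 9.

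Set against each other by prenatal group, both offspring groups had more calls of gains than of losses. In MIA offspring, limma called 11 of 70 regions higher and 3 lower after LPS (background 6.33% and 4.01%). In control offspring it called 12 higher and 2 lower (background 5.72% and 4.60%). Of the 14 regions called in each, 11 were called in both (78.6% of either list). Over all regions 2921 were called in both, 57.5% of the 5080 called in MIA and 57.6% of the 5073 called in control offspring, and this difference in overlap was not tested. In either direction these were 14 of the 70 regions, beside a background of 10.3% in each offspring group. The presence test called 3 of 9 regions higher and 0 lower in MIA offspring (background 13.0% and 2.48%). In control offspring it called 3 of 10 higher and 0 lower (background 9.92% and 2.52%). The upstream regions of Tnfsf18 and Tnfrsf1b passed in both, with the region in Traf3 in MIA offspring and the one beyond Traf1 in control offspring (Fisher's exact test, adjusted p = 0.0140 in MIA and 0.0101 in CON).

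The difference between the responses was tested by itself. No region of the 70 passed (limma interaction, smallest adjusted p = 0.988), where 1 of all 49124 regions did (0.00204%). At an unadjusted p under 0.05 there were 1 of the 70 regions and 2185 of all. The median of MIA response minus control response was −0.616 points over the 70 regions and 0.483 over all. Upstream of Tnfrsf1b the response was 65.9 points ± 4.72 in MIA and 60.1 ± 4.57 in control offspring (SE), a difference of 5.85 with a 95% interval from −7.82 to 19.5. At the start of Tnf it was 25.2 ± 5.66 in MIA and 20.5 ± 5.47 in control offspring, a difference of 4.76 with an interval from −11.6 to 21.1. Upstream of Lta it was 31.4 ± 6.03 in MIA and 40.8 ± 5.83 in control offspring, a difference of −9.43 with an interval from −26.9 to 8.03. Within Traf3 the difference was 10.8 with an interval from −5.51 to 27.0, and beyond Traf1 it was −9.82 with an interval from −35.7 to 16.0. Intervals of this width do not show that the responses were equal.

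**Figure D5:**
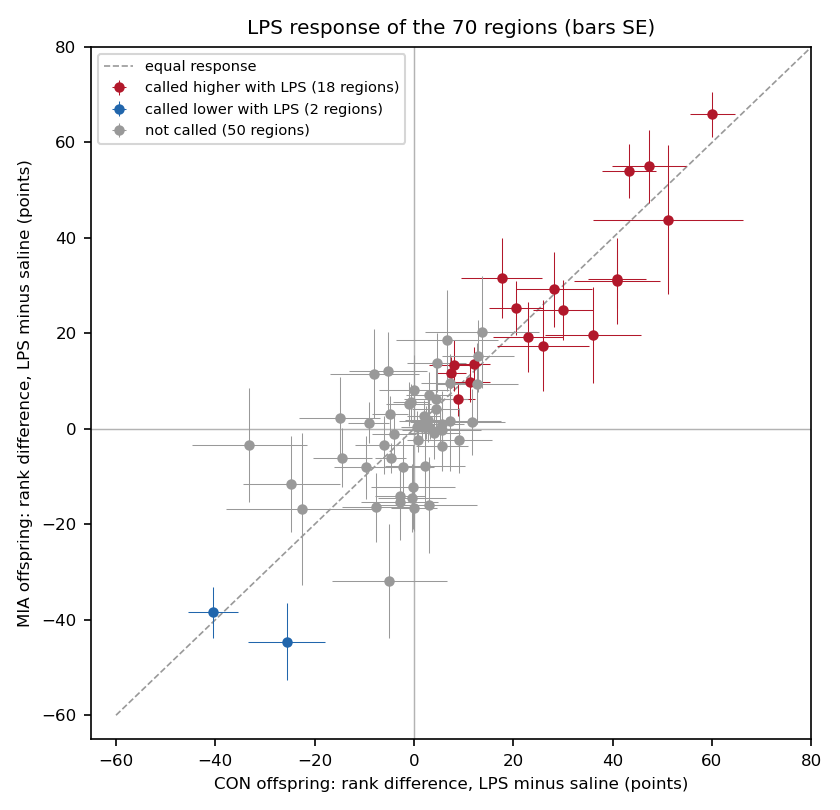
Rank difference, LPS minus saline (points), of each of the 70 regions in MIA offspring (vertical) against control offspring (horizontal), with SE bars and a dashed line at equal response. The 18 regions called higher over both groups lie up and right on either side of the line, and the 2 called lower lie down and left.

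Between MIA and control offspring over both treatments, no region of the 70 was called on presence (exact conditional test, 21 regions tested, background 0%) or on rank (limma, smallest adjusted p = 0.960, background 0.00204%). At an unadjusted p under 0.05 there was 1 region on presence, beside 410 of all regions, and there were 5 on rank, beside 2455 of all. Tests within saline and within LPS libraries called 0 of 7 and 0 of 5 regions (Fisher's exact test, background 0%), with 1 and 0 regions at an unadjusted p under 0.05. The median difference on rank was −1.29 points over the 70 regions and 0.00800 over all. The 5 on rank follow, and they were chosen after their values were seen. A region assigned to Ltb but nearest to Aif1 (chr17:35178476-35178976) was open in all 23 libraries and differed by 13.4 points (95% interval from 4.56 to 22.2; limma, unadjusted p = 0.00479). The region within Tnfaip3 differed by 7.93 points (interval from 1.87 to 14.0) and the start of Tnfrsf1b by −4.58 points (interval from −8.77 to −0.386). A pair of regions assigned to Lta but lying in Nfkbil1 differed by −14.6 points (chr17:35222173-35222673, interval from −26.9 to −2.38) and by 8.34 points (interval from 1.45 to 15.2).

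The last of these was also the region with an unadjusted p on presence, 15040 bp from Lta (chr17:35220368-35220868). It was open in 0 of 5 MIA_LPS, 0 of 7 CON_LPS, 5 of 6 MIA_SAL and 0 of 5 CON_SAL libraries (Fisher's exact test in saline libraries, p = 0.0152, adjusted p = 1.00). Its ranks in MIA_SAL libraries were 0 to 44.5 with a median of 13.3, so these were weak peaks. In the full deposited lists it was open in 2 of 5 MIA_LPS, 1 of 7 CON_LPS, 6 of 6 MIA_SAL and 0 of 5 CON_SAL libraries. With those lists limma called MIA against control offspring there (adjusted p = 0.0102). The uncut lists differ in length, with 33949 to 68312 peaks in MIA and 37284 to 53918 in control libraries. How many of all regions were called in this way is not given here.

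Other genes of the pathway, 69 in a list chosen with earlier results of these data known, had 335 regions within 20 kb, of which 101 could be tested on presence. After LPS 23 were open in more libraries and 4 in fewer (22.8% and 3.96%, beside the background of 15.3% and 8.39%), at 17 and 4 genes. On rank 40 of the 335 were higher and 21 lower (limma, 11.9% and 6.27%, beside the background of 10.5% and 9.47%), and the median difference was 0.0768 points. Among genes of NF-kB signalling and its feedback, 13 of 46 tested regions were higher and 0 lower. The smallest p among them was at a region 15768 bp from Tab1 but nearest to Syngr1. It was open in 12 of 12 LPS libraries and no saline library (exact conditional test, adjusted p = 0.000175). Regions at Tnip1 and Nfkbia were chosen after their values were seen. Within Tnip1, whose protein works with that of Tnfaip3, a region was open in 4 of 5 MIA_LPS and 7 of 7 CON_LPS libraries and no saline library (exact conditional test, adjusted p = 0.000547). A region 15441 bp from Nfkbia, which encodes an inhibitor of NF-kB, had a peak in 12 of 12 LPS libraries and 3 of 11 saline libraries (adjusted p = 0.00807). Among adaptors and death regulators, 5 of 16 tested regions were higher, 3 of them at Cflar, an inhibitor of the death-signalling caspase, and 2 lower, at Traf5 and Traf6. On rank the NF-kB genes had 18 higher and 6 lower of 143 regions, and the adaptors and death regulators 12 higher and 6 lower of 80. Receptors had 3 higher and 2 lower of 30 on presence and 7 higher and 9 lower of 88 on rank, and ligands 2 higher and 0 lower of 9 on presence, at Tnfsf14 and Tnfsf13, and 3 higher and 0 lower of 24 on rank. No region of the list was called between MIA and control offspring on presence.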

How the data were processed

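ATAC-seq peak lists of 23 libraries were used, 1 per library. Per the submitters' processing notes, the tools were cutadapt, Bowtie2, Picard, SAMtools, MACS2 and DiffBind, and the builds mm10 and GRCm38. The sources used here give no versions or settings. Each deposited list gives a fold enrichment over background, which is a ratio, and −log10 p and −log10 q values as the authors' peak caller wrote them. The lowest deposited −log10 q was 1.301. The deposited score column was not used. No counts were used, so depth is unknown and no floor can be given.

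Lists were cut to 33949 peaks by −log10 p, since their lengths differed. Regions reaching 250 bp to either side of a summit were built from all lists, and 49124 of 74287 had a peak in at least 3 libraries. A library was open at a region when a peak overlapped it by at least 50% of the region or of the peak. Presence was tested with an exact conditional test stratified by the other factor, or Fisher's exact test within a group, both two-sided, on regions that could reach p = 0.01. Ranks were fitted over all regions in 1 limma model of the 4 groups. P-values were adjusted by Benjamini and Hochberg over all regions tested, at 0.05. On simulated data for LPS against saline over 49124 regions, the presence test called 178 of 200 changed regions and 2 unchanged ones. In a separate simulation limma called 76 of 200 and 4. The planted changes were near-complete differences in presence for the exact test and a fixed shift in rank for limma, so the counts cannot be compared. Both treated each region independently, without libraries that stand apart, and do not give the rate of false calls in these data. R 4.3.3, limma 3.58.1, Python 3.11.15, numpy 2.4.6, pandas 2.3.3, scipy 1.17.1 and matplotlib 3.10.9 were used.

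The members, gene lists and tests were chosen with earlier results of these data known. Regions were named by rule: for each gene the one nearest to a gene end within 1 kb, the called regions of the LPS presence test (at most 3), the best ranked, and any called between MIA and control offspring. Others are marked in the text as chosen after their values were seen. Replicate numbers in the labels were not used to pair libraries in the main tests, though libraries of replicate 3 resembled each other, as given below. Pairing by the second number of the ID label, which some libraries share, was not tested.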

Additional observations from a re-analysis of the deposited data

Results flagged for a closer look

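In 17 of 125 groups of 5 to 7 libraries, 1 library's rank stood apart from the others by Dixon's test. Chance flags about 1 in 20 groups only where values are normally spread and not tied. A group in which exactly 1 library has a peak is always flagged, so the count of 17 cannot be set against that share. Among MIA_LPS libraries, replicate 3 stood apart at 5 regions. It ranked 6.40 at the start of Ltb, where the others had no peak, and 18.1 within Tnfrsf1b at 7346 bp, where the others had none. It ranked 73.9 within Tnfrsf1b at 24725 bp, against 55.2 to 59.6 in the others, and 91.0 at the start of Tnfaip3, against 81.3 to 83.6. It was at 0 at the start of Tnfrsf1a, against 54.5 to 72.6. MIA_LPS replicate 4 ranked 4.15 at the start of Tnfsf18, where the others had none.

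CON_LPS replicate 5 was low at 2 regions. It ranked 43.3 at one end of Tnfsf9, against 57.4 to 64.3, and 41.7 at the start of Tnfrsf1a, against 56.4 to 65.6. Among MIA_SAL libraries, replicate 6 ranked 6.61 within Tnfrsf1b at 24725 bp, against 33.8 to 49.4. Replicate 3 ranked 25.7 next to the start of Tnfrsf1b, where the others had no peak. Replicate 5 ranked 64.9 upstream of Traf3, against 78.0 to 85.4, and 44.8 within Traf3 at 20823 bp, where the others had none.

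Among CON_SAL libraries, replicate 3 ranked 48.1 at the start of Traf1, against 0 to 13.3, and 35.4 within Tnfaip3 at 2388 bp, against 52.5 to 54.4. Replicate 2 ranked 69.3 at the start of Traf3, against 75.9 to 77.4. Replicate 5 ranked 8.49 within Traf3 at 15703 bp and replicate 1 ranked 14.1 there at 20823 bp, where the others had no peak.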

How the results depend on the processing

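The count of 10 regions called on presence after LPS was 6 within 5 kb of the genes and 9 to 11 with 1 library left out. In libraries of fewer than 20000 sorted cells it was 3 of 12 tested, beside 450 of all 7225 tested. The count of 20 on rank was 10 in lists of 16974 peaks, 9 in libraries of fewer than 20000 sorted cells, 13 within 5 kb and 18 to 22 with 1 library left out. In control offspring the 3 presence calls became 0 with no filter on the attainable p, 1 within 5 kb and 3 to 4 with 1 library left out. With no filter, 0 of all 30365 regions were called in control offspring. In MIA offspring the 3 became 1 with all deposited peaks, 0 with no filter, 1 within 5 kb and 3 to 6 with 1 library left out, the 6 without MIA_LPS replicate 3. Calls were 1 of 17 tested with all deposited peaks, beside 513 of all 7272. Without that replicate they were 6 of 10 tested, beside 1369 of all 6416, and with no filter 0 of all 30185. MIA against control offspring on rank gave 1 region with all deposited peaks, where the share over all regions is not given, and 0 with any 1 library left out. The other tests of that comparison and the interaction also gave 0.

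With the replicate block, 7 of 7 regions tested on presence were called, beside 1646 of all 2106 tested. On rank 18 were called, and the limma share over all regions is not given here. By replicate number, 6 of 20 pairs correlated above 0.1 (r from −0.180 to 0.185). In 7 of the 20 the same number gave the best correlation, among them every pair of replicate 3 (r from 0.123 to 0.185). Replicate 3 of each group was among the libraries that stood apart.

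Of the described regions, 53 calls over 21 results were lost, 15 over 6 were gained, and 1413 values kept their side. Directions turned only at regions that were not called, and the cause was not tested. Ranked by fold, the region within Tnf became −10.3, those of Tnfsf9 −5.83 and −1.87, the start of Tnfrsf1b −0.526, and the start of Traf1 −8.01 on rank and −17.6 percentage points on presence. In libraries of fewer than 20000 cells they were −3.18 within Tnf, 0.183 at the start of Tnfsf18, −1.17 at Tnfrsf1b, −6.85 at Traf1 and 0.409 at Tnfaip3. In libraries of more cells they were −3.21 at one end of Tnfsf9 and −2.86 near Vps13d. Without identity numbers 1 to 3 they were 0.236 at the start of Tnfrsf1a and −0.324 near Vps13d. With 1 library left out, the start of Tnfrsf1a ranged from −8.74 to 0.334 (without MIA_LPS replicate 3) and that of Tnfsf18 from −3.62 to 0.261 (without CON_SAL replicate 5). With all deposited peaks the start of Tnfaip3 gave 0.311. Presence could not be tested in libraries of 20000 or more cells, nor within some groups under the cell split, the block or without identity numbers 1 to 3.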
